A study of Saccharomyces cerevisiae with 10 samples.

Results

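The ESCRT genes encode the protein complexes that sort ubiquitin-tagged membrane proteins into the vesicles of the late endosome. Described here are 10 of them in Saccharomyces cerevisiae, out of 5449 genes of that species that the array names. They were picked by gene symbol, with earlier results of these data known. They are VPS27 and HSE1 of ESCRT-0, VPS28 of ESCRT-I, VPS25 and VPS36 of ESCRT-II, VPS20, SNF7 and VPS24 of ESCRT-III, the ATPase gene VPS4 and the adaptor gene BRO1. Each had 1 probe set. The tested yeast carried the plasmid prs426GPD-αENaC-HA, which encodes αENaC, the HA-tagged α chain of a mammalian epithelial sodium channel that yeast does not make. The controls carried the vector pRSGPD426. In both plasmids the name GPD stands for a strong constitutive promoter, and both groups grew at 26 °C in selective medium to mid log phase. The labels do not give the host strain, and the αENaC transcript is not measured here, so the levels come without a check of how much channel RNA each culture made. There were 3 αENaC arrays and 7 control arrays, each made from total RNA of a culture, and the series' design text calls the replicates biological. Because whole cultures were measured on values scaled within each array, a change in the share of cells and a change in RNA per cell cannot be told apart.

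The ESCRT complexes act in order at the endosome. ESCRT-0 binds phosphatidylinositol 3-phosphate and ubiquitinated cargo, ESCRT-I and ESCRT-II are recruited next, and ESCRT-II starts the assembly of ESCRT-III, whose Snf7 filaments drive the budding of vesicles into the endosome. Vps4 then takes the filaments apart, and Bro1 brings in the deubiquitinase Doa4, which recovers ubiquitin before the cargo enters the vesicle. When the endosome fuses with the vacuole, the vesicles and the membrane proteins in them are degraded. Misfolded membrane proteins that leave the endoplasmic reticulum are among the cargo of this route.

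The running numbers in the sample titles put αENaC 1 and 2 with controls 1 and 2 (title numbers 1 to 4), αENaC 3 with control 3 (title numbers 5 and 6) and controls 4 to 7 alone (title numbers 11 to 14). The labels do not call these sets batches. Arrays of the same set and group were near-identical across probe sets (r = 0.999 for αENaC 1 and 2 and 0.998 for controls 1 and 2). Control 4 stood somewhat apart from controls 5 to 7, at r = 0.980 to 0.985. A level below is log2 of the signal in units of the array mean, plus 0.03, after quantile normalization. On this scale the 95th percentile of the probe sets named outside the S. cerevisiae annotation lay at −2.00, and all 10 ESCRT genes lay above it on average. The α-factor receptor gene STE2, which is expressed in MATa cells, was at −2.62 in αENaC and −2.53 in control yeast, below that level, and the a-factor receptor gene STE3, which is expressed in MATα cells, was at 1.78 in αENaC and 1.68 in control yeast. Both were looked up after their values were seen.

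None of the 10 ESCRT genes differed between αENaC and vector control yeast past the test (limma across 5498 probe sets, Benjamini-Hochberg adjusted p under 0.05), against 1.73% of all probe sets called. At an unadjusted p under 0.05, 4 of the 10 passed, namely VPS36, HSE1, VPS20 and VPS4, against 18.2% of all probe sets. The differences were small, from −0.30 for VPS4 to 0.37 for VPS36 on the log2 scale, and 7 of the 10 were positive, against 53.8% of all probe sets, with a median of 0.12 against 0.018 over all probe sets tested. The positive values belonged to the genes of ESCRT-0, ESCRT-I and ESCRT-II, to BRO1 and, at 0.02, to VPS24, and the negative ones to VPS20, SNF7 and VPS4. The number of arrays limits the precision, and a p that misses the threshold does not show that the groups were alike.

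Both ESCRT-0 genes had higher mean levels in αENaC yeast. HSE1 (YHL002W, probe set 1774317_at), which encodes the ubiquitin-binding partner of Vps27, had levels of 0.38, 0.41 and 0.43 on αENaC arrays 1 to 3, against 0.06 to 0.38 with a median of 0.15 on the 7 control arrays. Every αENaC array lay at or just above the highest control, so the groups did not overlap, but controls 3 and 4, both at 0.38, reached almost the level of αENaC 1. The difference was 0.22 ± 0.088 (SE, n = 3 and 7; adjusted p = 0.224), with a 95% confidence interval of 0.02 to 0.41. VPS27 (YNR006W, probe set 1776083_at), which encodes the subunit that binds the endosomal membrane and recruits ESCRT-I, had levels of 0.32, 0.49 and 0.16 in αENaC yeast, against −0.20 to 0.30 with a median of 0.0035 in controls. Here the groups overlapped, since αENaC 3 lay below controls 1, 2 and 4 (control 2 by less than the printed digits). The difference was 0.28 ± 0.13 (adjusted p = 0.275).

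Among the 10, the ESCRT-I gene VPS28 and the ESCRT-II genes also had positive differences. The ESCRT-I genes outside the 10, STP22, SRN2 and MVB12, were at −0.03, −0.26 and −0.06 over all arrays, none of them called. VPS28 (YPL065W, probe set 1769463_at), whose product links ESCRT-I to ESCRT-II, had levels of −0.32, −0.34 and −0.10 in αENaC yeast, against −0.55 to −0.23 with a median of −0.34 in controls. Only αENaC 3 lay above all controls. The difference was 0.12 ± 0.098 (adjusted p = 0.555). It was called higher on the deposited z scores (0.086 z, adjusted p = 0.0456), where 93 of 5498 probe sets were called. It was also called higher within title numbers 1 to 4 alone (0.21, adjusted p = 0.00461). There 7 of the 10 genes and 3309 of 5498 probe sets were called, so that call was not particular to VPS28. VPS25 (YJR102C, probe set 1776838_at), whose product binds Vps20 to start ESCRT-III assembly, had levels of −0.51, −0.54 and −0.51 in αENaC yeast, against −0.71 to −0.57 with a median of −0.63 in controls. The groups did not overlap, and the αENaC arrays were tight, with an SD of 0.021 (n = 3), against an SD of 0.058 (n = 7) in controls. The difference was 0.12 ± 0.061 (adjusted p = 0.347). HSE1 and VPS25 were the 2 of 10 genes whose αENaC arrays all lay above all controls, against 4.97% of all probe sets, and none had its αENaC arrays all below all controls, against 3.62%.

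VPS36 (YLR417W, probe set 1780183_at), whose product anchors ESCRT-II through ubiquitin and phosphoinositide binding, had the largest difference of the 10. Its levels were −0.02, −0.06 and −0.29 in αENaC yeast, against −0.71 to −0.09 with a median of −0.56 in controls. Controls 1 and 2, at −0.09 and −0.28, lay close to the αENaC arrays, while controls 4 to 7 lay at −0.48 or below. The difference was 0.37 ± 0.14, or 1.30-fold (adjusted p = 0.201), with an interval of 0.06 to 0.69. It was smaller within title numbers 1 to 4, at 0.14, and within title numbers 5 and 6, at 0.27.

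The ESCRT-III genes and VPS4 did not share that direction. VPS20 (YMR077C, probe set 1773106_at), which encodes the subunit that nucleates Snf7 filaments, had levels of −0.85, −0.84 and −0.75 in αENaC yeast, against −0.79 to −0.31 with a median of −0.46 in controls. The αENaC arrays were at the low end, next to controls 1 and 2 at −0.79 and −0.77. The difference was −0.28 ± 0.11 (adjusted p = 0.208). SNF7 (YLR025W, probe set 1779219_at), which encodes the main filament subunit, had levels of 0.08, 0.14 and −0.07 in αENaC yeast, against 0.10 to 0.36 with a median of 0.18 in controls. The groups overlapped, since αENaC 2 lay above controls 5 to 7, while αENaC 1 and 3 lay below every control. The difference was −0.16 ± 0.084 (adjusted p = 0.349), and its sign turned without quantile normalization (0.03, adjusted p = 0.909) and on the z scores (0.02, adjusted p = 0.872).

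VPS24 (YKL041W, probe set 1775831_at), which encodes a subunit that caps and coils the filaments, spread most among the controls of the 10 genes. Its levels were −0.54, −0.56 and −0.89 in αENaC yeast, against −1.03 to −0.24 with a median of −0.83 in controls. Controls 1, 2 and 3 were high, at −0.24, −0.31 and −0.46, and controls 4 to 7 were low, at −1.03 to −0.83. The difference over all arrays was 0.02 ± 0.19 (adjusted p = 0.975), but each αENaC array lay below the controls of its own set. VPS4 (YPR173C, probe set 1778299_at) had levels of −0.13, −0.17 and 0.20 in αENaC yeast, against 0.03 to 0.54 with a median of 0.28 in controls. αENaC 1 and 2 lay below every control and αENaC 3 among them. The difference was −0.30 ± 0.12, or 0.814-fold (adjusted p = 0.225), with an interval of −0.56 to −0.03.

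BRO1 (YPL084W, probe set 1772620_at), the adaptor gene, had levels of 0.30, 0.32 and 0.31 in αENaC yeast, against 0.09 to 0.37 with a median of 0.11 in controls. The αENaC arrays lay within the range of the controls, of which controls 3 and 4, at 0.37 and 0.35, were the highest. The difference was 0.13 ± 0.085 (adjusted p = 0.441).

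**Figure D1:**
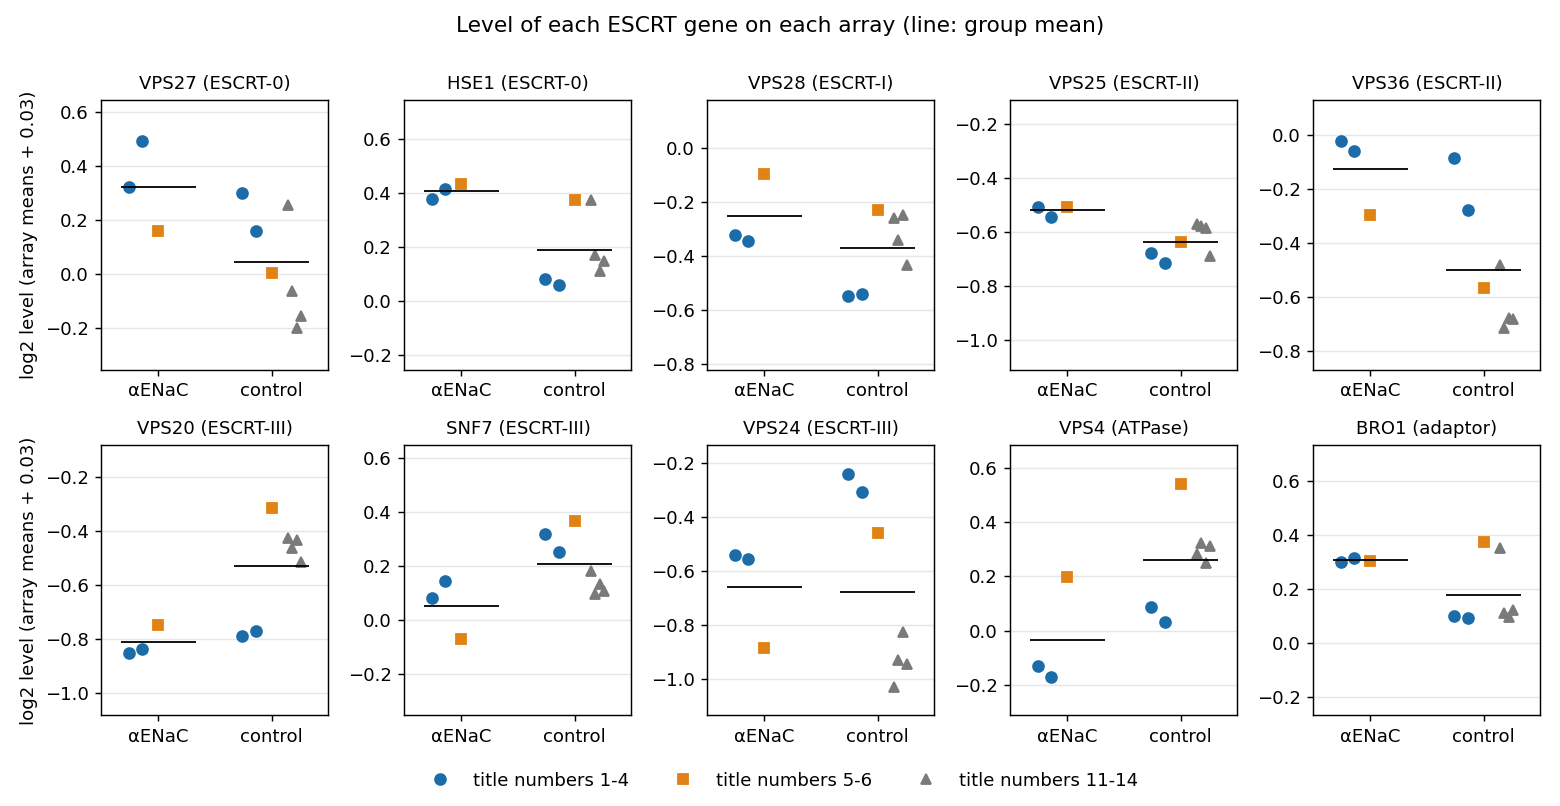
Log2 level (array means + 0.03, quantile normalized) of the 10 ESCRT genes on each array, with αENaC arrays left and control arrays right in each panel, each panel spanning 1 log2 unit. Circles, squares and triangles are title numbers 1 to 4, 5 and 6, and 11 to 14, and lines are group means. In the VPS24 panel the control arrays split by title set, from −0.24 at the top to −1.03 at the bottom, and in the SNF7 and VPS4 panels each αENaC array lies below the control arrays of its own set.

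The genes were also compared within the 2 title sets that hold both groups. Grouping them by the stage at which their products act was done after the values had been seen and was not tested. The 5 genes of ESCRT-0, ESCRT-I and ESCRT-II were higher in αENaC within both sets, and VPS20, SNF7, VPS24 and VPS4 were lower within both. BRO1 was at 0.21 within title numbers 1 to 4 and at −0.07 within 5 and 6. Over all probe sets, 23.8% were higher and 28% lower within both sets. Within title numbers 1 to 4 the αENaC and control arrays did not overlap for any of the 10 genes, but neither did they for 82% of all probe sets, since arrays of 1 set and group were near-identical there.

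SNF7, VPS24 and VPS4 were called lower when the title set was fitted as a fixed block, against 6.86% of all probe sets called lower in that fit, 7.38% called higher and 14.2% called either way. VPS24 was −0.32 ± 0.062 (SE; adjusted p = 0.0152), with −0.27 within title numbers 1 to 4 and −0.42 within 5 and 6. SNF7 was −0.26 ± 0.063 (adjusted p = 0.032), with −0.17 and −0.44 in the same 2 sets, and VPS4 was −0.26 ± 0.048 (adjusted p = 0.0141), with −0.21 and −0.34. None of the other 7 passed, and those next in order were VPS25 at 0.16 (adjusted p = 0.0661) and VPS28 at 0.19 (adjusted p = 0.0671). The SEs of the fixed block come from spread within title sets, where many arrays were near-identical, so that spread may be partly technical. Controls 4 to 7 add to it without an αENaC array. With near-identical arrays averaged and no block, none of the 10 and 219 of 5498 probe sets had an unadjusted p under 0.05 (limma). SNF7 (adjusted p = 0.0304) and VPS4 (adjusted p = 0.0288), but not VPS24 (−0.28, adjusted p = 0.0713), were called lower in a fit that took the set as a random block, against 4.71% of all probe sets called lower and 11.2% either way. The calls in the fixed block changed with single arrays. Without αENaC 1, αENaC 2 or control 1 none of the 10 passed in limma (6, 6 and 7 at an unadjusted p under 0.05). In these fits 2.75%, 4.09% and 4.62% of all probe sets were called at an adjusted p under 0.05. Their share at an unadjusted p is not given here, so the 6, 6 and 7 have no like share beside them. In the fixed block on all arrays, 8 of the 10 genes and 1761 of 5498 probe sets had an unadjusted p under 0.05 (limma). Without control 2, 5, 6 or 7 VPS24 and VPS4 passed and SNF7 did not (4.06% to 10.1% of all probe sets called). Without αENaC 3, control 3 or control 4 there were 6 calls, against 24.6% to 35.3% of all probe sets. They were SNF7, VPS24 and VPS4 lower and HSE1, VPS28 and VPS25 higher. With the replicate number as a block, which leaves out controls 4 to 7, none was called (4 at an unadjusted p under 0.05, lowest adjusted p of the 10 at 0.169 for VPS24). In that fit no other probe set was called either (1127 of all probe sets at an unadjusted p under 0.05).

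The other core ESCRT genes on the array were set beside these 10, a division into stages that was made after the values had been seen and is a description without a test. Of 10 late-acting genes (ESCRT-III, its associated proteins, VPS4 and its cofactor gene VTA1), 9 were lower in αENaC within both title sets and 1 was higher within both. The exception was VPS60, an ESCRT-III-associated gene, at 0.02 and 0.14. BRO1, DOA4 and RFU1, a gene for a regulator of Doa4, were counted in neither stage. Of these 3, only RFU1 was lower within both sets and none was higher within both. Of 9 early-acting genes (ESCRT-0, ESCRT-I and ESCRT-II), 7 were higher within both sets and 1, the ESCRT-I gene SRN2, was lower within both, at −0.02 and −0.50. With each array centred on its median the counts were 9 late genes lower in both sets and 7 early genes higher in both. Without normalization between arrays and on the z scores they were 8 late and 7 early genes. The shares of all probe sets lower and higher in both sets were 37% and 18.8% with median centring, 21.4% and 31.5% without normalization, and 27.6% and 27.2% on the z scores.

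Over all arrays none of these further ESCRT genes passed the test, and the stages were less distinct. The late genes had a median of −0.13 with 7 of 10 negative, and the early genes a median of 0.12 with 6 of 9 positive. The negative early genes were STP22, SRN2 and MVB12, all of ESCRT-I. Within title numbers 1 to 4 the medians were −0.16 for late and 0.17 for early genes, against −0.023 over all probe sets, and within title numbers 5 and 6 they were −0.39 and 0.088, against −0.00098. With the set as a fixed block 5 of the 10 late genes and none of the 9 early genes were called, all 5 lower, against 6.86% of all probe sets called lower and 7.38% higher. They were SNF7, VPS24, VPS4, the ESCRT-III-like gene CHM7, whose product acts at the nuclear envelope and whose level lay near the background one, at −0.25 (adjusted p = 0.0276), and VTA1 at −0.20 (adjusted p = 0.0272). Which stages held calls in this fit changed with the scaling. With median centring 4 late genes (without VTA1) were called lower and no early gene was called, against 5.35% of all probe sets called lower and 4.58% higher. Without normalization VPS24 and VPS4 were called lower and the early genes VPS28, SNF8 and VPS25 higher, against 2.89% of all probe sets called lower and 10.4% higher. On the z scores the same 5 late genes were called lower and 6 early genes higher (HSE1, VPS28, MVB12, SNF8, VPS25 and VPS36), against 5.78% and 10.5%. The ESCRT-II gene SNF8 was at 0.32 ± 0.11 over all arrays (adjusted p = 0.16), and DID2, whose product recruits Vps4 to ESCRT-III, was at −0.23 ± 0.096 (adjusted p = 0.245). RFU1, an inhibitor of Doa4, was at −0.45 ± 0.18 (adjusted p = 0.214), and DOA4 itself at 0.34 ± 0.16 (adjusted p = 0.277). Both of those differences lay mostly in title numbers 1 to 4, with −0.66 for RFU1 and 0.57 for DOA4 there, but −0.03 and −0.08 in title numbers 5 and 6.

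**Figure D2:**
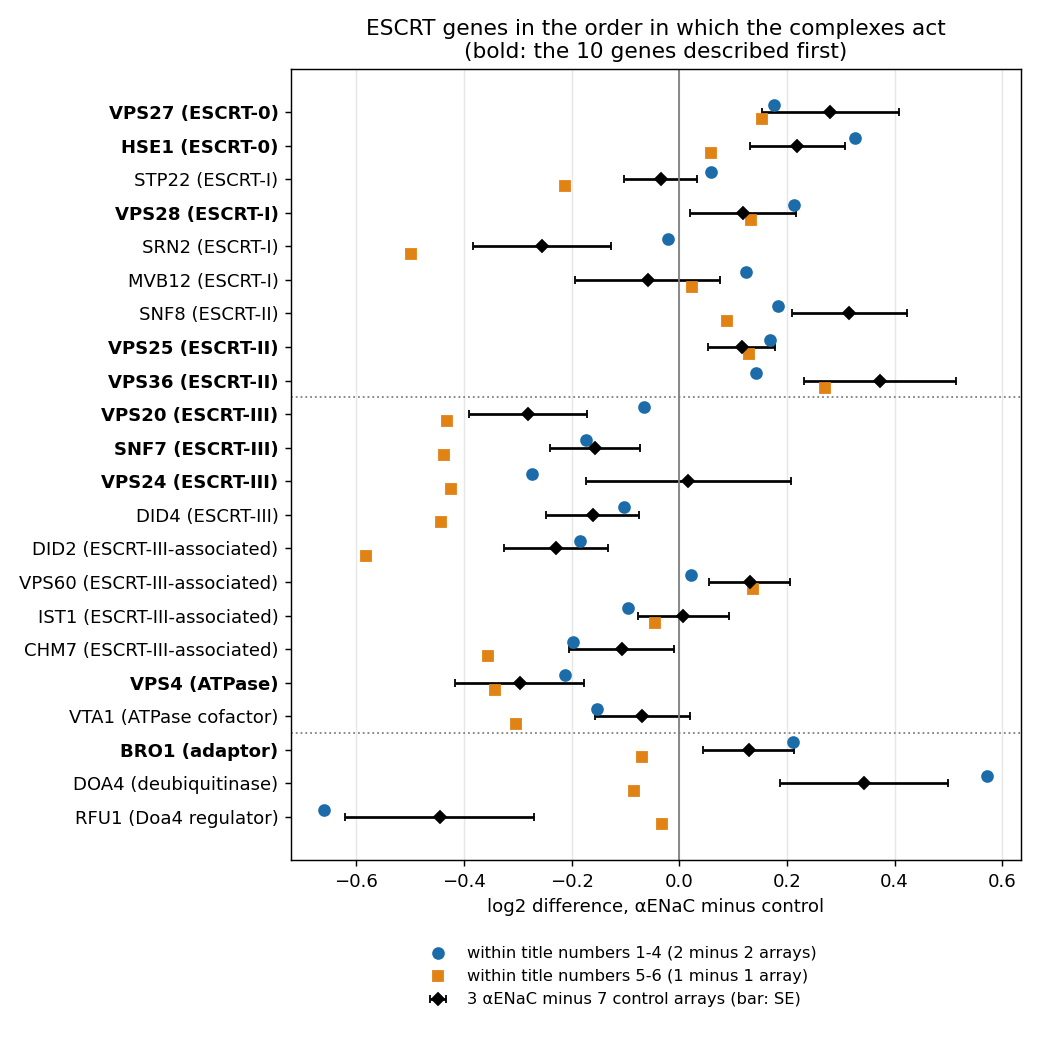
Log2 difference, αENaC minus control, of 22 ESCRT and associated genes (rows, in the order in which the complexes act), with the 10 genes described first in bold. Diamonds are 3 αENaC minus 7 control arrays with SE bars, circles the difference within title numbers 1 to 4 and squares within title numbers 5 and 6. Both coloured symbols lie left of 0 for 9 of the 10 late genes between the dotted lines, and right of 0 for 7 of the 9 early genes above them. BRO1, DOA4 and RFU1, below the lines, belong to neither stage.

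The ESCRT genes also differed among the control arrays. In a fit with 1 mean per group and title set, 6 of the 10 genes differed between controls 4 to 7 and controls 1 and 2, against 64.3% of all probe sets (27.2% higher and 37.1% lower in the later controls). VPS24 averaged −0.93 in controls 4 to 7 and −0.28 in controls 1 and 2, a difference of −0.66 ± 0.06 (adjusted p = 9.16e-05), and VPS36 averaged −0.64 and −0.18, a difference of −0.46 ± 0.081 (adjusted p = 0.00196). SNF7 was lower in the later controls by a smaller amount, at −0.16 ± 0.046 (adjusted p = 0.0187). These 3 were also called lower with median centring, without normalization and on the z scores.

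VPS20, VPS4 and VPS28 were called higher in the later controls, at 0.32 ± 0.042 (adjusted p = 0.000481), 0.23 ± 0.042 (adjusted p = 0.00225) and 0.22 ± 0.059 (adjusted p = 0.0117). With median centring VPS20 was still called higher (0.18, adjusted p = 0.0289), but VPS4 (0.13, adjusted p = 0.0744) and VPS28 (0.10, adjusted p = 0.253) were not called. Without normalization between arrays, where the median over all probe sets was −0.27, all 3 turned negative, at −0.05, −0.10 and −0.13, and none was called. On the z scores VPS20 was called higher (0.026, adjusted p = 0.0491) and VPS4 was called lower (−0.054, adjusted p = 0.00473). VPS28 was at −0.0069 there (adjusted p = 0.706). With quantile normalization the difference between these 2 groups of control arrays was larger in size than that between αENaC and control over all arrays for VPS24, VPS36, VPS20 and VPS28. Controls 4 to 7 have no αENaC array in their set.

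The difference between αENaC and control itself was set against the title set. In title numbers 5 and 6, which hold 1 array of each group, the VPS20 difference was −0.43, against −0.07 in title numbers 1 to 4. The difference of the 2 was −0.37 ± 0.084 and passed the test (limma interaction term, adjusted p = 0.029), 1 of 10 genes against 17.4% of all probe sets. With median centring and without normalization no gene of the 10 passed that test (1 at an unadjusted p under 0.05 in both). The other 9 did not pass with quantile normalization, SNF7 coming nearest at −0.26 ± 0.092 (adjusted p = 0.0855).

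The level of VPS36, the ESCRT gene with the smallest p, was most like that of MAG2, RPN1, APM1, PCM1 and CHS1 over the 10 arrays (Pearson r of 0.984, 0.980, 0.979, 0.978 and 0.974). Since the arrays fall into title sets and VPS36 differs between them, these correlations also hold what the sets share and are given as a description. None of the 5 passed the test between αENaC and control.

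Genes of the same route were counted on 7 further lists with 71 measured genes, of which 1 rose and 1 fell, against 1.36% of all probe sets called higher and 0.364% called lower. VAM3, which encodes the vacuolar syntaxin that fuses endosomes with the vacuole, fell to −0.89, −0.81 and −1.001 in αENaC yeast, against −0.65 to −0.46 in controls. The groups did not overlap. The difference was −0.35 ± 0.069 (adjusted p = 0.0322), with −0.36 within title numbers 1 to 4 and −0.48 within 5 and 6. Of 25 alternatives with a test VAM3 passed 12, with adjusted p between 2e-05 and 0.998. It did not pass with median centring (adjusted p = 0.231), without normalization between arrays (−0.13, adjusted p = 0.607) or on the z scores (adjusted p = 0.299). Nor did it pass without αENaC 1 (adjusted p = 0.2), αENaC 2 (0.105), αENaC 3 (0.0504), control 1 (0.0509) or controls 5, 6 or 7 (0.076, 0.083 and 0.073). PEP8, which encodes the retromer subunit Vps26, rose to 0.87, 0.78 and 0.60, against 0.23 to 0.55 in controls. The difference was 0.42 ± 0.087 (adjusted p = 0.0431), with 0.49 within title numbers 1 to 4 but 0.05 within 5 and 6. PEP8 passed 10 of the 25, with adjusted p between 1.05e-06 and 0.998. It did not pass with median centring (adjusted p = 0.132), without normalization between arrays (0.0948) or on the z scores (0.0705). Leaving out 1 array at a time, it passed only without αENaC 3 (0.0277) or control 3 (0.0149). With the replicate block neither VAM3 (adjusted p = 0.146) nor PEP8 (adjusted p = 0.24) passed.

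Among the 16 genes of endosomal tethering and fusion, VAM3 fell and none rose, and the median was 0.07. The next by p were the HOPS gene VAM6 at 0.20 (adjusted p = 0.236) and VPS45, an endosomal fusion factor, at 0.40 (adjusted p = 0.265). Of the 9 genes of retromer and endosomal recycling, PEP8 rose and none fell, and 8 were positive with a median of 0.07. VPS29, another retromer gene, lay at 0.49 to 0.51 in αENaC yeast and at −0.08 to 0.41 in controls, a difference of 0.36 ± 0.13 (adjusted p = 0.18), and the sorting nexin gene SNX41 was at 0.33 (adjusted p = 0.247). The 8 genes of the endosomal phosphoinositide enzymes and their regulators were all positive over all arrays, where 53.8% of all probe sets were, with a median of 0.099 and none called. Their median was 0.28 within title numbers 1 to 4 but −0.024 within 5 and 6, where VPS34, VAC14, VPS30 and VPS15 were negative. FAB1, the kinase that makes phosphatidylinositol 3,5-bisphosphate, was at 0.45 ± 0.12 (adjusted p = 0.0903), with non-overlapping groups. Its activator gene VAC7 was at 0.41 ± 0.12 (adjusted p = 0.123), and VPS34, the kinase that makes the lipid bound by ESCRT-0, at 0.31 ± 0.09 (adjusted p = 0.108).

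The genes of cargo and of ubiquitin supply were mixed. Of 12 plasma membrane cargo genes none was called and the median was 0.07, but −0.22 within title numbers 1 to 4, 0.11 within 5 and 6 and −0.091 with the title set as a fixed block. The amino acid permease gene GAP1 lay at 2.27 to 2.43 in αENaC yeast and at 2.56 to 2.97 in controls, a difference of −0.44 ± 0.099 (adjusted p = 0.0557). LYP1, the lysine permease gene, was at −0.25 (adjusted p = 0.183) and SNA3, an endosomal cargo and Rsp5 adaptor gene, at 0.17 (adjusted p = 0.429), with −0.09 under median centring. Of 8 genes of ubiquitin supply and cargo ligases none was called, at a median of 0.14. The polyubiquitin gene UBI4 was at 0.38 ± 0.1 (adjusted p = 0.0854) and the Rsp5 adaptor gene SSH4 at 0.34 ± 0.097 (adjusted p = 0.103), both with non-overlapping groups, and UBP2, a deubiquitinase gene that acts with Rsp5, was at 0.19 (adjusted p = 0.449).

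The vacuolar and Rim101 lists showed no call either. The 9 vacuolar hydrolase genes had a median of 0.02, with the proteinase gene PRB1 at 0.48 ± 0.21 (adjusted p = 0.257), the carboxypeptidase gene CPS1 at −0.46 ± 0.29 (adjusted p = 0.415) and the dipeptidyl aminopeptidase gene DAP2 at 0.17 (adjusted p = 0.519). CPS1, itself an ESCRT cargo, was at 1.24 and 1.14 in controls 1 and 2 and at 2.02 or above in the other controls. The Rim101 pathway senses ambient pH and uses Snf7 and Vps20 as a scaffold for the cleavage of the transcription factor Rim101. Its 9 genes had a median of 0.22 with 7 positive. The factor gene RIM101 was at 0.22 (adjusted p = 0.259), the protease gene RIM13 at 0.38 (adjusted p = 0.317) and the scaffold gene RIM20 at 0.29 (adjusted p = 0.332). Within title numbers 1 to 4 and 5 and 6 the list medians were 0.17 and 0.06.

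With the title set as a fixed block, where 14.2% of all probe sets were called, calls on these 7 lists went both ways. Of the cargo genes MUP1, a methionine permease gene, was called higher (adjusted p = 0.0168), and GAP1 (0.0476) and the arginine permease gene CAN1 (0.0133) lower. Of the ubiquitin genes UBI4 (0.0479), SSH4 (0.032) and the Rsp5 adaptor gene BUL1 (0.0349) were called higher and RSP5, the cargo ligase gene itself, lower (0.0407). FAB1 (0.0464), VAC7 (0.0126) and PEP8 (0.0371) were called higher. VAM3 (0.00446), the vacuolar fusion gene VAM7 (0.0414), the sorting nexin gene SNX3 (0.032) and the vacuolar phosphatase gene PHO8 (0.0238) were called lower, and no Rim101 gene was called. VAM7 averaged −2.67 in αENaC and −2.58 in control yeast, below the background level of −2.00.

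**Figure D3:**
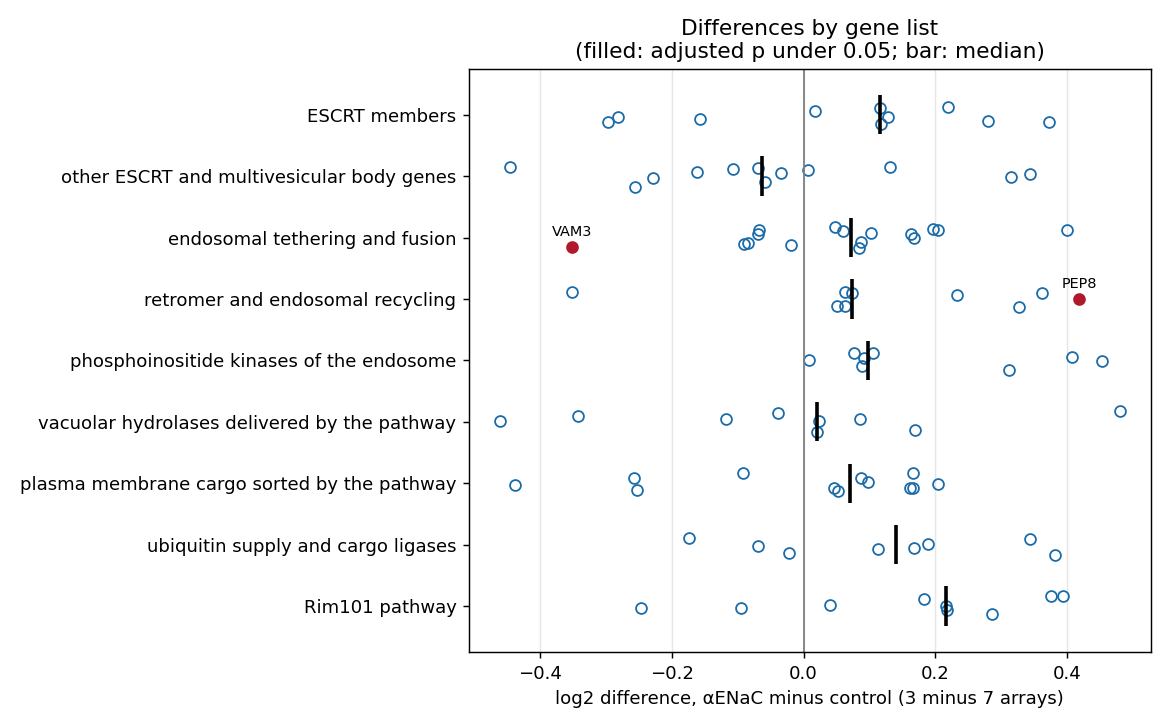
Log2 difference, αENaC minus control (3 minus 7 arrays), of each gene on the ESCRT list and 8 further lists (rows), with black bars at the list medians. Filled points are the genes past the test, VAM3 at −0.35 and PEP8 at 0.42, and the medians lie between −0.06 and 0.22.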

How the data were processed

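The members and gene lists were chosen with earlier results of these data known. The deposited file gives 1 score per probe set and array, which its values show to be z scored (mean 0, SD 1 over 10715 probe sets of an array). Summarisation and background correction are not given in the sources used here. Per the labels' protocols, hot-phenol RNA was column-cleaned and labelled with the Affymetrix 3' IVT Express kit. Each array's lowest score was subtracted and the result divided by its size, which gives units of the array mean and takes the lowest value as 0. After adding 0.03 and taking log2, arrays were quantile normalized. Low genes therefore have understated differences. Probe sets were named by the platform's annotation, updated by gene identifier through the R64 RefSeq gene table, which also gave the locus tags. All 10 symbols and 83 of 84 further list symbols matched. No coordinates or sequences were used.

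The test was limma's (version 3.58.1, R 4.3.3; lmFit and eBayes, 2-sided, without covariates), with 8 residual degrees of freedom and p adjusted by Benjamini-Hochberg over the 5498 probe sets that name 1 S. cerevisiae gene (threshold 0.05). The fit with 1 mean per group and title set had 5 residual degrees of freedom. The random block correlation was 0.716. As a check of pairing, the deviations from the group mean of arrays with equal replicate numbers had correlations of 0.41, 0.22 and 0.17 (all above 0.1). The numbers were therefore taken to pair αENaC 1 to 3 with controls 1 to 3 (2 residual degrees of freedom). Arrays of equal number also share a title set, and the deviations of arrays with unequal numbers were not compared. The check therefore cannot tell pairing by number from the title set. Because many arrays are almost copies of each other, the p-values reflect a spread that may be partly technical. Alternatives changed the scaling, pseudocount, filter, blocks, weights and arrays used. The steps were tested on simulated data. The text names all 10 members, any called gene of a list and its top 3 by p, and 5 genes most like VPS36. Other genes were named after their values were seen.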

Additional observations from a re-analysis of the deposited data

Results flagged for a closer look

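The difference of VPS20 between αENaC and control was unlike in the 2 title sets that hold both groups. It was −0.43 in title numbers 5 and 6 and −0.07 in title numbers 1 to 4, and the difference between these, −0.365, passed the test (limma interaction term, adjusted p = 0.029). Title numbers 5 and 6 hold 1 array of each group, so the term rests on αENaC 3 and control 3. Control 3, at −0.31, had the highest VPS20 level of all 10 arrays.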

How the results depend on the processing

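Leaving out 1 array moved the 95 calls over all probe sets to between 12 and 237, with 12 and 13 without αENaC 1 or 2, 237 without αENaC 3 or control 3, and 44, 45 and 44 without controls 5, 6 and 7. It left the ESCRT count over all arrays at 0, and in the fixed set block moved the 3 ESCRT calls to between 0 and 6. Of the 10 ESCRT genes, 1 was called on the z scores, 3 with the title set as a fixed block, 2 with it as a random block, 7 with array weights and 7 with title numbers 1 to 4 alone. Over all probe sets the calls were 39 with median centring, 46 without normalization between arrays and 93 on the z scores. They were 783 with the fixed and 617 with the random block, and 4126 with array weights (whose estimate stopped before convergence). Title numbers 1 to 6 gave 20 and title numbers 1 to 4 gave 3309. In limma there were 0 with the replicate block (1127 at an unadjusted p under 0.05) and 0 with near-identical arrays averaged (219). The replicate block, which called no probe set at all, called no ESCRT gene either, so it cannot show whether pairing matters for them. The share of higher calls was 78.9%, but 97.8% without normalization, where the median of all probe sets was 0.16, 95.7% on the z scores, 51.9% and 58% with the fixed and random block, 57.3% with array weights, 90% with title numbers 1 to 6 and 47.1% with 1 to 4. In the set block on the z scores 7 of the 10 were called, 4 higher and 3 lower, against 16.2% of all probe sets. Without normalization that block called 4, of which 2 were higher, against 13.3% of all probe sets. These fits and the other blocked alternatives were chosen after seeing the data. VPS20's interaction was not called with median centring or without normalization (0 genes each).

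VPS24 turned to −0.32 with the fixed block, the replicate block or title numbers 1 to 6, to −0.28 with the random block, to −0.27 in title numbers 1 to 4, to −0.42 in 5 and 6 and to −0.051 with arrays averaged, and ran from −0.043 to 0.129 with 1 array left out. SNF7 turned to 0.032 without normalization, 0.018 on the z scores and 0.016 with array weights. In title numbers 5 and 6 alone BRO1 turned to −0.069, VPS34 to −0.0905, DAP2 to −0.41, UBP2 to −0.22, RIM101 to −0.19 and RIM13 to −0.12. RIM20 turned to −0.037 in title numbers 1 to 4, and SNA3 to −0.087 with median centring. The causes were not tested.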
